A study of Rattus norvegicus with 3 samples.

Results

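The locus described here is the stretch of rat chromosome 14 around the region annotated to Fgf5, a secreted fibroblast growth factor. Its members were chosen by position and by list membership: every region of the 3 deposited MBD-seq lists that overlaps chr14:12200000-13200000 on assembly rn4. The rule finds 35 regions of the 95306 in the lists. The window was selected on a region that MACS had called and that the study had picked for bisulphite sequencing, so the presence and the score of the Fgf5 region are a description and were not tested.

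Methylated DNA was captured from livers of male Wistar rats aged 1 day with a methyl-CpG binding domain protein, and the captured fragments were sequenced. Group C came from dams on a normal diet, MLP from dams on low protein food, and MLP-F from dams on low protein food with added folate. Each group was 1 pooled library from 1 litter. The labels give 6 animals per pool and the study's text gives another number. A list holds the regions where MACS, which compares a treatment library with a control library, found more reads in the first group named than in the second. The lists are MLP vs. C (35998 regions), MLP vs. MLP-F (33730) and MLP-F vs. C (25578). By a cut-off on the false discovery rate (FDR), the study kept a small part of both lists that name MLP first. For MLP-F vs. C it reported no differentially methylated region. A listed region is therefore a MACS call and need not be a difference that the study reported. Each listed region carries the score that MACS wrote, its −log10 p multiplied by 10. The lowest score in each list is 50, which is a p of 1e-05. Regions lower in the first group were not analysed here. With 1 library per group there is no replicate check and no test of diet, and litter and diet cannot be told apart. The MLP library was the deepest and the C library the shallowest by the study's read totals, and a score also depends on depth. The lists share libraries in pairs, so their overlaps are not independent results.

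FGF5 is best known as the signal that ends the growth phase of the hair cycle, and loss of the gene gives long hair in several mammals. Like most fibroblast growth factors it is secreted, binds heparan sulphate and acts through receptor tyrosine kinases on the cell surface. The human locus is known from association studies of blood pressure. In the current RefSeq assembly (GRCr8), the protein-coding neighbours of Fgf5 are Bmp3, a member of the bone morphogenetic protein family, and Cfap299 on one side. On the other side are Prdm8, a PR domain transcriptional regulator, and Antxr2, an anthrax toxin receptor that binds extracellular matrix, followed by the glycerol kinase gene Gk2. In rn4 too, the region that the authors annotated to Prdm8 lies beyond that of Fgf5. Throughout, beyond means at a higher coordinate and before means at a lower one, whatever the strand of a gene. MBD capture reads methylated CpG over a fragment, so a region does not say which CpG differed.

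The Fgf5 region spans chr14:12713062-12714431 and is 1370 bp long. The authors' annotation places it downstream of the gene. RefSeq puts Fgf5 on the minus strand of chromosome 14 in GRCr8. No annotation of rn4 was used here, so whether the region touches the last exon or the 3′ UTR was not determined. The study designed primers for the region after bisulphite conversion, which turns unmethylated cytosine into uracil and leaves methylated cytosine in place. The pair of primers, designed by the study to the complement strand, is shown because the study lists it for the bisulphite sequencing of this region. The study's methods also describe a further round of PCR with a nested forward primer, so this pair need not bound the stretch read. Where in the region the primers lie was not determined here. Both are given 5′ to 3′, in lower case throughout since no base is singled out.
forward primer: agtttgtgtggtaggatttgg
reverse primer: tacccaacctttcaatccatc

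Each primer is 21 bases long. The forward primer holds 0 C and 9 T, and the reverse primer holds 0 G and 9 C, the composition of primers for a converted strand and its copy. Neither holds a CpG as written. In a primer for converted DNA a CpG of the genome can be written as TG, or as CA on the copy. Whether a CpG lies beneath either primer, and whether priming depends on its methylation, was therefore not determined. Neither was found in the RefSeq promoter window of Fgf5 (GRCr8, chr14:11650194-11650493, minus strand, 300 bases) when that sequence was converted on either strand, with CpG kept or converted. The authors place the region downstream of the gene, so this absence says nothing about where the primers lie. The promoter window of Fgf5 holds 23 CpG, against a median of 7 over 33469 promoter windows, and 19.5% of promoters hold as many. The promoter windows of Antxr2 and Bmp3 hold 25 and 6 CpG, and the 2 windows listed for Cfap299 hold 24 and 25. No rn4 sequence was used, so the CpG content of the Fgf5 region itself was not measured.

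The Fgf5 region scored 95.2 in MLP vs. C. It is in neither other list, so it was not called higher in MLP than in MLP-F, nor higher in MLP-F than in C. A region missing from a list may still differ there by less than the cut-off. By score it stands at place 12187 of 35998, and 33.9% of the list scored at least as high. On chromosome 14 it stands at place 480 of 1452. Of the 12 MLP vs. C regions in the window it is the longest and the fourth by score. Its score is 0.15 above that of the next region, at chr14:13119182-13119779, which scored 95.05. The region is long for its list, where the median is 674 bp and 4.51% of regions are at least 1370 bp.

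Near the Fgf5 region the MLP vs. C list holds further regions and the other lists hold none. Within 100 kb on either side there are 3 MLP vs. C regions, counting that of Fgf5, and 0 in each other list. The second, chr14:12746576-12747392, lies 32.1 kb beyond the Fgf5 region and scored 77.7. The next, chr14:12763207-12763951, lies 48.8 kb beyond it and scored 58.0. All 3 are in the MLP vs. C list alone, as are 39.1% of the regions of that list over the genome. Within 200 kb the counts are 7 in the MLP vs. C list, 1 in that of MLP vs. MLP-F and 5 in that of MLP-F vs. C. The nearest MLP vs. MLP-F region lies 131 kb before the Fgf5 region (chr14:12580852-12581745, score 94.5) and the next one lies 318 kb beyond it (chr14:13032440-13033028, score 50.1).

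That leaves 451 kb around the Fgf5 region with no MLP vs. MLP-F region, while the same stretch holds 6 MLP vs. C regions and 3 MLP-F vs. C regions. Over the placed chromosomes the median distance between neighbouring MLP vs. MLP-F regions was 41.9 kb, and 1.83% of distances were as long as 451 kb. Such distances make up 13.8% of the sequence between regions of that list. In the MLP-F vs. C list the empty stretch around the Fgf5 region is 283 kb, from a region 158 kb before it (score 57.0) to one 124 kb beyond it (score 141). Stretches as long make up 45.4% of the sequence between regions of that list. A position without a nearby MLP-F vs. C region is therefore common. The window was placed around an MLP vs. C region, so that list has a region at this position by selection. Apart from the Fgf5 region, the MLP vs. C list is empty there over 165 kb, against a median distance of 38.2 kb. Of its distances 12.1% were as long, and they make up 49.9% of the sequence between its regions.

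**Figure D1:**
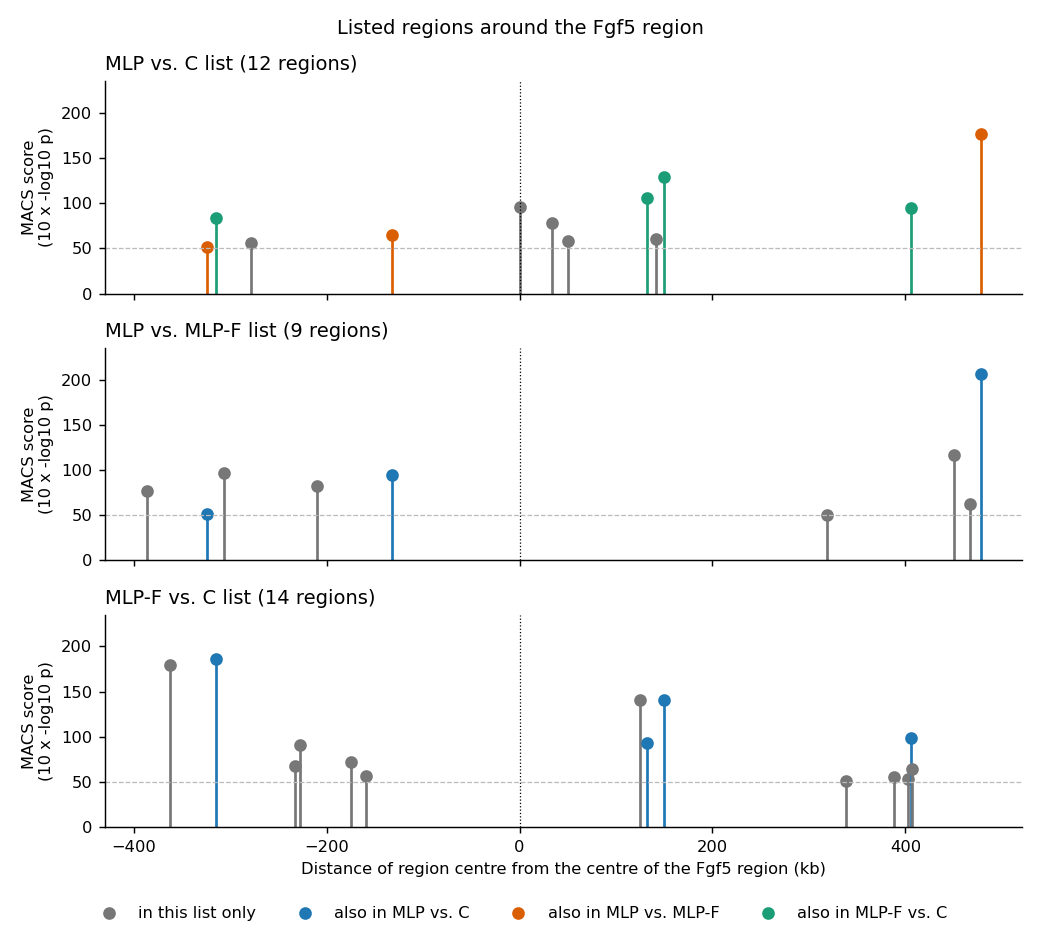
MACS score of each listed region (vertical axis) against the distance of its centre from that of the Fgf5 region in kb (horizontal axis), with 1 panel per list and colours for regions that also overlap another list; the dashed line is the lowest score, 50. The 3 MLP vs. C regions closest to the dotted line are grey, in 1 list only, and the MLP vs. MLP-F panel is empty over 451 kb around it.

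Regions that overlap by at least 1 bp were merged, which gave 28 separate positions from the 35 regions. Of these, 5 are in MLP vs. C alone, 6 in MLP vs. MLP-F alone and 10 in MLP-F vs. C alone. A further 3 are in both MLP lists and 4 are in both lists against C. No position is in all 3 lists, and no MLP vs. MLP-F region overlaps an MLP-F vs. C region. Such overlaps are rare everywhere, with 1.27% of MLP vs. MLP-F regions and 1.67% of MLP-F vs. C regions, and 1.11% of MLP vs. C regions overlap both other lists.

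Of the 12 MLP vs. C regions in the window, 3 (25.0%) overlap an MLP vs. MLP-F region, against 39.4% of the whole list. The same 3 are 33.3% of the 9 MLP vs. MLP-F regions, against 42.1% of that list. For MLP-F vs. C, 4 of the 12 (33.3%) overlap, against 22.6%, and they are 28.6% of the 14 MLP-F vs. C regions, against 31.8%. The 5 that overlap neither other list, that of Fgf5 among them, are 41.7% of the 12, against 39.1%. In neither other list are 6 of the 9 MLP vs. MLP-F regions (57.8% of that list) and 10 of the 14 MLP-F vs. C regions (68.1%). Each of these 7 counts differs by at most 1.73 regions from the number that the background share of its list would give.

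Of the 3 positions in both MLP lists, the first, chr14:12389441-12389869, scored 51.53 in both, close to the lowest score. The second, chr14:12580852-12581745, scored 64.5 against C and 94.5 against MLP-F. The last, chr14:13191432-13192417, scored 176 against C and, at 206, more against MLP-F. It is the highest-scoring region of the window in both lists. It stands at 8.76% of the MLP vs. C list and at 9.99% of the other. At all 3 positions both lists give the same start and the same end. The same holds for all 14194 overlaps between the MLP lists, and for 0 of the 8175 overlaps between the lists against C, where the treatment library differs.

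The 4 positions in both lists against C include the one annotated to Prdm8. That region, chr14:12863148-12863750, lies 149 kb beyond the Fgf5 region and is labelled upstream of Prdm8 by the authors. It scored 129 in MLP vs. C. The MLP-F vs. C region over it, chr14:12862896-12863761, scored 141. It is the only region of the window in the authors' table of selected MLP vs. C regions, and it is not in the MLP vs. MLP-F list. It stands at 18.2% of the MLP vs. C list and at 6.80% of the MLP-F vs. C list.

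A neighbouring position, chr14:12845746-12846363, scored 106 in MLP vs. C and 93.6 in MLP-F vs. C. At chr14:13119182-13119779 the scores were 95.05 and 99.3. At chr14:12398534-12399358 they were 84.0 and 186, the widest difference among the 4 pairs. There the MLP-F vs. C region (chr14:12398447-12399473, 1027 bp) is the longest and highest of its list in the window. MLP-F vs. C had the higher score at 3 of the 4 positions. Because the libraries differ in depth, a higher score is not a larger difference in methylation. In each of the 4 pairs the overlap covers at least 69.6% of both regions.

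**Figure D2:**
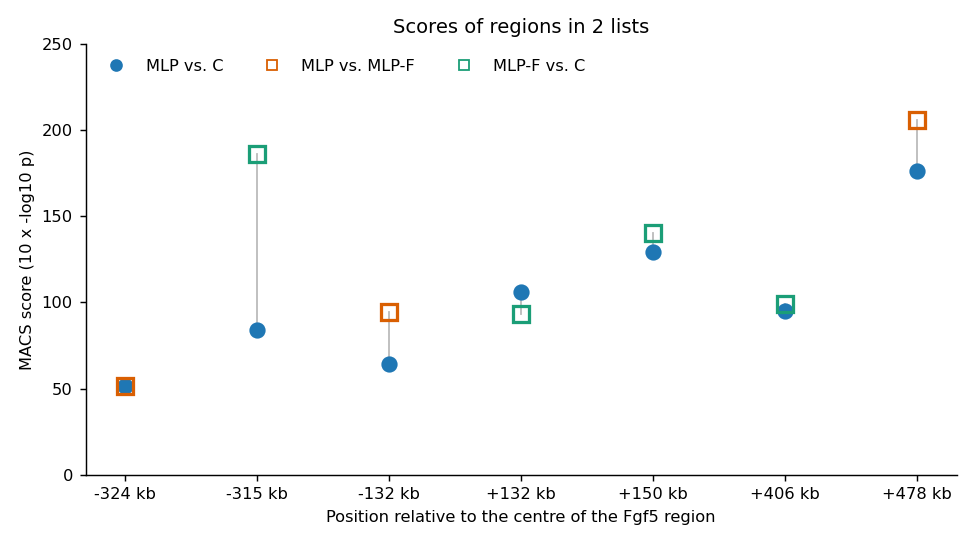
MACS scores (vertical axis) at the 7 positions found in 2 lists, ordered along the chromosome by distance from the Fgf5 region (horizontal axis); filled circles are MLP vs. C and open squares the other list. The scores coincide at the first position (51.53) and differ most at the second (84.0 and 186).

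The region of Prdm8 belongs to the densest run of MLP vs. C regions in the window. From chr14:12838455-12863761, a span of 25.3 kb that begins 124 kb beyond the Fgf5 region, there are 3 MLP vs. C and 3 MLP-F vs. C regions and no MLP vs. MLP-F region. Besides the pairs above, it holds an MLP vs. C region (chr14:12854520-12854958, score 60.8) and one of MLP-F vs. C (chr14:12838455-12838880, score 141), each in 1 list alone. A second run, chr14:13101906-13120773, spans 18.9 kb and holds 4 MLP-F vs. C regions, which scored 55.5, 53.2, 99.3 and 64.7, and 1 MLP vs. C region. Another, chr14:13164321-13192417, spans 28.1 kb with 3 MLP vs. MLP-F regions, scored 117, 62.6 and 206, 1 MLP vs. C region and no MLP-F vs. C region. Runs were set by a distance of at most 20 kb between neighbouring positions.

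In the part before the Fgf5 region the lists fall differently. There are 4 MLP vs. C, 5 MLP vs. MLP-F and 6 MLP-F vs. C regions. The MLP-F vs. C regions there include one that no other list holds at chr14:12350965-12351741, with a score of 179. The remaining ones that stand alone scored 67.6, 90.5, 72.0 and 57.0. The MLP vs. MLP-F regions found alone before the Fgf5 region scored 76.9, 96.2 and 82.4. The MLP vs. C list adds a single region of its own there, chr14:12435196-12435535, 340 bp long with a score of 56.0. At the edges, the closest MLP vs. C regions left out end at 12140664 (score 56.3) and begin at 13219249 (score 62.1). The outermost ones inside scored 51.5 and 176.

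Median scores in the window were close to those of the list in both MLP comparisons and higher in MLP-F vs. C. The median was 80.8 in MLP vs. C (list median 77.4), 82.4 in MLP vs. MLP-F (81.8) and 81.3 in MLP-F vs. C (69.4). A score of at least 100 was found for 3 of the 12 MLP vs. C regions, against 31.1% of that list. Among the 9 MLP vs. MLP-F regions 2 reached it, against 36.8%, and among the 14 of MLP-F vs. C 4 did, against 19.1%. In the upper 10% of their own list were 4 MLP-F vs. C regions, 1 MLP vs. MLP-F region and 1 MLP vs. C region. The 4 are at chr14:12398447-12399473 and chr14:12350965-12351741, in the first 2.87% and 3.20% of the list, and at chr14:12838455-12838880 and the position of Prdm8, at 6.68% and 6.80%.

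**Figure D3:**
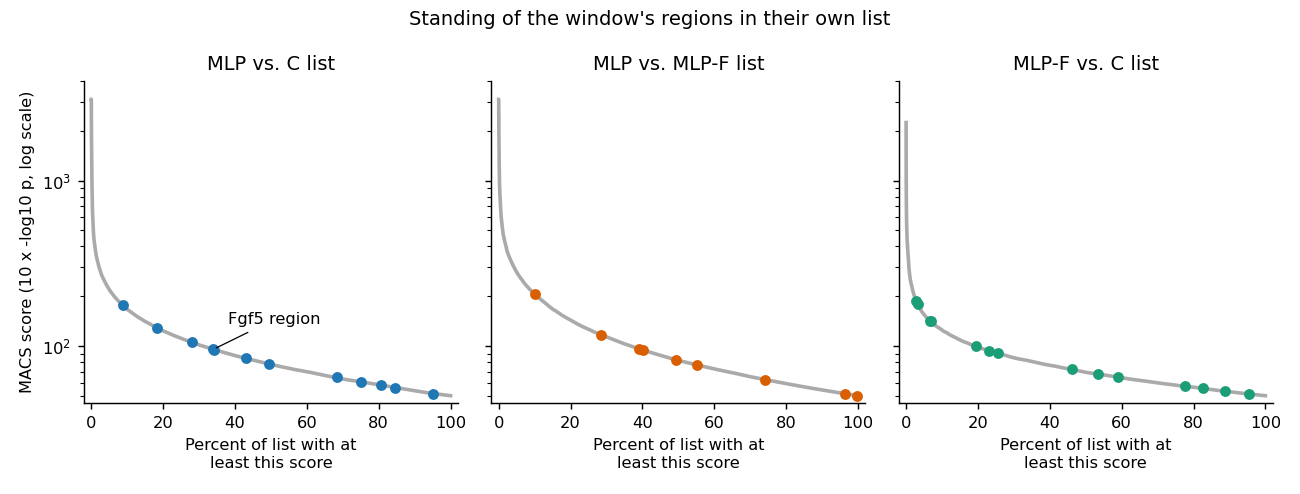
MACS score on a log scale (vertical axis) against the percent of the list with at least that score (horizontal axis), with the whole list in grey and the regions of the window as points. The Fgf5 region lies at 33.9% of the MLP vs. C list, and 4 MLP-F vs. C regions lie between 2.87% and 6.80% of theirs.

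The number of regions was compared with that of other windows. Of 2710 windows of 1 Mb tiled along the placed chromosomes, 47.2% hold at least 12 MLP vs. C regions, and the median is 11. At least 9 MLP vs. MLP-F regions are found in 58.7% (median 10), and at least 14 MLP-F vs. C regions in 24.2% (median 8). On chromosome 14 the percents are 45.5%, 58.0% and 29.5% of 112 windows. The regions cover 0.866% of the window in MLP vs. C, 0.631% in MLP vs. MLP-F and 0.907% in MLP-F vs. C. In this window the MLP-F vs. C list has the most regions, but the order depends on the window: in 500 kb around the Fgf5 region both lists against C hold 7, and in 2 Mb MLP vs. C holds 28 and MLP-F vs. C 22.

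**Figure D4:**
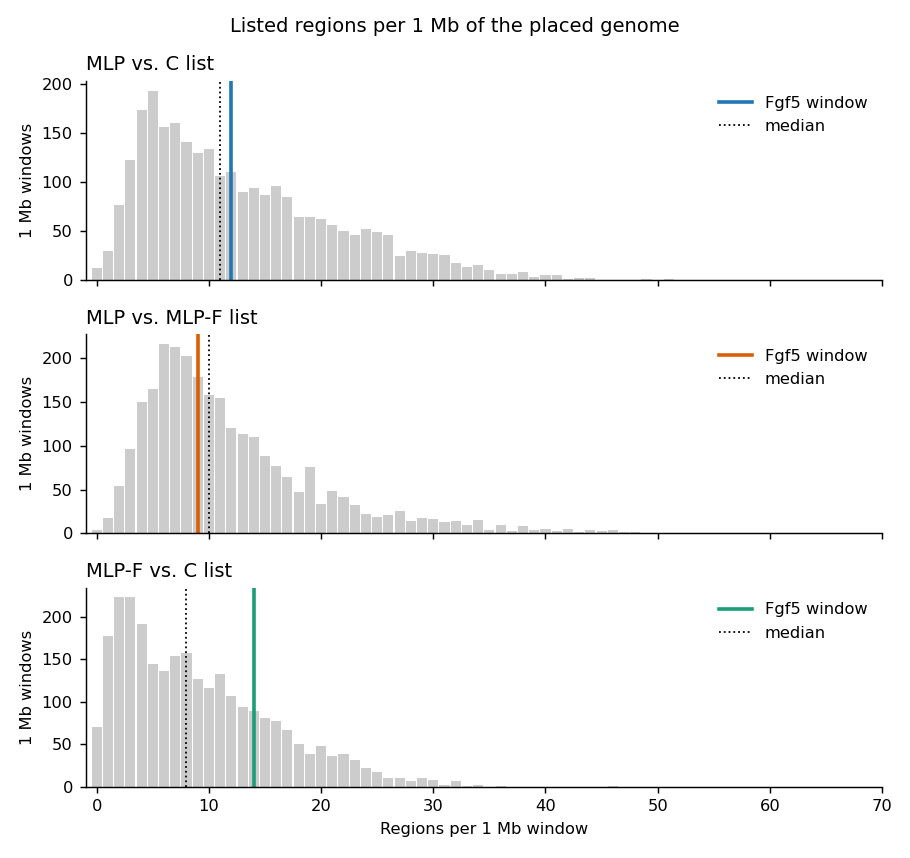
Number of 1 Mb windows of the placed chromosomes (vertical axis) by the number of listed regions they hold (horizontal axis), with 1 panel per list; coloured lines mark the Fgf5 window and dotted lines the median. The Fgf5 window holds 12, 9 and 14 regions against medians of 11, 10 and 8.

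The other loci for which the study designed bisulphite primers give scores to set beside that of the Fgf5 region. By bisulphite sequencing, the paper reported a significant methylation difference between MLP and C at Fgf5, Agtrap, Dnmt1 and Mcm6. It reported none at Sfmbt1, which has the highest score of these loci, so the scores do not rank that outcome. In MLP vs. C, the region of Sfmbt1, a polycomb-related gene, scored 2905, that of the maintenance methyltransferase Dnmt1 221, that of Agtrap, whose product binds the angiotensin II receptor, 123, and that of the replication helicase subunit Mcm6 50.5. The Fgf5 region stands between those of Agtrap and Mcm6. The regions of Agtrap, Dnmt1 and Sfmbt1 are also listed against MLP-F, and the MLP-F vs. C list has regions over those of Mcm6 and Sfmbt1. Of the 5, only that of Fgf5 is in MLP vs. C alone, which is common, as 39.1% of that list are. The 1 Mb around the other loci held between 16 and 30 MLP vs. C regions and between 10 and 34 MLP vs. MLP-F regions, above the 12 and 9 at Fgf5. In the MLP-F vs. C list they held 8 at Agtrap, 6 at Dnmt1, 14 at Mcm6 and 16 at Sfmbt1, against 14 at Fgf5. The loci were selected by the study and are not a sample of the genome.

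Of 48 genes of the fibroblast growth factor family and its signalling pathway, 47 are in RefSeq for the rat. The authors' tables of selected regions name 3 of the genes. Fgf5 is not among them, so the Fgf5 region is in the deposited MLP vs. C list but not in the authors' selection. Fgf21, a liver hormone of fasting, has a region labelled upstream (chr1:96063989-96064671) with a score of 126 against C and of 68.2 against MLP-F. Fgfrl1, a receptor that lacks the kinase domain, has an intronic region on the same chromosome as Fgf5 (chr14:1561615-1562366) with a score of 122 against C and of 153 against MLP-F. Dusp6, a phosphatase that switches off ERK downstream of the receptors, has a region labelled upstream (chr7:36887864-36888526). It scored 131 in MLP vs. C, is not listed against MLP-F, and lies under a region of MLP-F vs. C that scored 141. The regions of Fgf21 and Fgfrl1 are thus in both MLP lists, that of Dusp6 is in both lists against C like that of Prdm8, and that of Fgf5 is in MLP vs. C alone. Over the whole MLP vs. C list, 39.4% of regions overlap the MLP vs. MLP-F list, 22.6% the MLP-F vs. C list and 39.1% neither. The authors' tables name genes for the regions they selected and not for the whole lists, so the count of 3 does not measure how many of these genes have a listed region nearby.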

How the data were processed

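MBD-captured liver DNA was sequenced as 1 pooled library per group. Per the study's methods, the authors used Bowtie to place read pairs on rn4, retaining a single placement of each, and then MACS to call regions between 2 libraries at a time. CASAVA is also named in the submitters' processing notes. Tool versions are not given in the sources used. The deposited lists give a position and a score per region, 10 times −log10 of the MACS p, with no read counts, fold or FDR, so the depth behind each region is unknown.

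Starts were converted to 1-based positions. Overlap means at least 1 bp. Places are by score, and ties share the last place. Windows of 1 Mb were tiled up to the largest end over the 3 lists, without unplaced sequence. Overlap counting was tested on simulated regions. No test was made across groups, which hold 1 library each. The members and gene lists were chosen with earlier results of these data known. Genes named are Fgf5, genes that the authors' annotation gives in the window, listed members of the FGF family and pathway, the other loci with bisulphite primers and the RefSeq neighbours of Fgf5, of which pseudogenes and small or long non-coding RNAs are not printed. Positions described besides these were chosen after their values were seen. Promoter sequences are from RefSeq (GRCr8), where 4 of the 5 genes looked up had an entry, and primers are from the study's supplement. The analysis used Python 3.11.15, numpy 2.4.6 and pandas 2.3.3.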

Additional observations from a re-analysis of the deposited data

How the results depend on the processing

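Of 20 alternatives, 9 moved the value by less than 1.5 times, and the other 11, on the score and the window size, moved it by more. The Fgf5 region stood at 33.7% of the MLP vs. C list on placed chromosomes and at 33.1% on chromosome 14. The overlap counts of 3 and 4 were the same with a reciprocal overlap of 50% and within 1 kb. With a score of at least 100, which leaves out the Fgf5 region, the window held 3 MLP vs. C, 2 MLP vs. MLP-F and 4 MLP-F vs. C regions, and each overlap count was 1. A window of 500 kb held 7, 2 and 7 regions, and one of 2 Mb held 28, 22 and 22. No paired analysis was possible because each group is 1 library.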

Other observations

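At chr14:12389441-12389869 the scores against C and against MLP-F were identical at 51.53. Of the 14194 regions that both MLP lists give, 773 (5.45%) have the same score in both. In 48.8% the score against MLP-F was the higher one, and the median score was 92.1 against C, with 94.6 against MLP-F. The 2 positions of the Fgf5 window with unequal scores in both MLP lists were each higher against MLP-F.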
